A study of Bos taurus with 20 samples.

Results

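Expression of 9 genes known from smooth muscle cells, pericytes, and the mesenchymal cells around vessels was examined in the cells of the bovine ovarian follicle. The genes were ACTA2, TAGLN, MYH11, CNN1, DES, RGS5, PDGFRB, PDGFRA, and MGP. They were taken by their symbols and made up 9 of the 22550 genes or transcripts of the array. All of their 22 probes, of 61325 probes that were not controls, entered the analysis.

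The samples came from antral follicles of 3 to 6 mm, taken from bovine ovaries after slaughter. Theca cells (TH) were scraped from the follicle wall, and oocytes, the cumulus cells (CC) around them, and the cells of the granulosa (GC) were separated from the punctured follicles. These groups were labelled immature, and a further group of CC had undergone 4 h of in vitro maturation (IVM). Each group had 4 arrays, 20 in all. Labelling started from 200 ng of RNA for each array and used 1 dye, Cy3. The labels give no strain, age, or genotype of the animals and do not say how many animals or follicles stand behind an array. The study's methods call the 4 arrays of a cell type biological replicates, and the p-values below rest on the spread between these samples. For each gene the groups share 1 estimate of that spread in the fit. An SE therefore does not show the spread of the 2 groups compared alone. A scraped follicle wall holds every cell type of the theca layer, and in such bulk samples fewer cells of a type cannot be told apart from less RNA per cell.

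Replicates 1 and 2 of TH, GC, CC, and oocytes shared 1 slide, and replicates 3 and 4 shared another. The 4 arrays of CC after IVM were alone on the third slide, so IVM and slide cannot be told apart in any comparison with them. The share of probes well above background was between 49.3 and 68.8%, lowest on oocyte replicate 2, and no spot was saturated. The 75th percentile of intensity, which was subtracted on each array, was between 1521 and 2891 on oocyte arrays. On arrays of CC after IVM it was between 284 and 396, so scaled levels near background are not alike between these groups. The labels were checked against markers. CYP17A1, the enzyme of androgen synthesis that defines steroid-making theca cells, was above background on all 4 TH arrays, on 1 GC array, and on no array of CC, CC after IVM, or oocytes. FSHR, the receptor of follicle-stimulating hormone in GC and CC, was lower in TH than in GC, with a difference of -5.41 on the log2 scale (limma, adjusted p = 9.6e-09). Of 5 endocrine markers of theca, 5 were higher in TH than in GC, of 4 markers of GC and CC, 4 were lower, and of 6 oocyte markers, 6 were lower in TH than in the oocyte. Over all 22550 genes, 2510 were higher and 2825 lower in TH than in GC, and 7187 were lower in TH than in the oocyte.

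The theca layer is the vascular outer wall of the follicle, and GC, CC, and the oocyte lie inside the basement membrane, where there are no vessels. Vascular smooth muscle cells and pericytes wrap arterioles and capillaries, and the outer theca also holds contractile cells that are not part of vessels. ACTA2, TAGLN, MYH11, CNN1, and DES encode parts of the contractile apparatus and its scaffold. RGS5 and PDGFRB are used as pericyte markers, PDGFRA marks many fibroblast-like cells, and MGP encodes an inhibitor of calcification in vessels and cartilage.

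The array measured each gene with 60-base probes, 6 for ACTA2 and 2 for each of the other 8 genes. No stretch of 20 bases was shared, on either strand, between these probes and the probes of other genes. Several probes of 1 gene overlapped and read nearly the same site. The longest shared run was 59 bases between the MYH11 probes, 51 between the TAGLN probes, 20 between the CNN1 probes, and 59 between ACTA2 probes 1 and 4. Values of such probes are therefore not separate measurements. The polyadenylation signal AATAAA, which lies near the end of many transcripts, was searched for on the strand as printed in the files. It occurred in 7 of the 22 probes, and in 8.35% of all 61325 probes. In DES, RGS5, PDGFRA, CNN1, and MGP, 1 probe held it and the other did not. The mean levels of the 2 probes in TH were 5.92 apart for DES, 2.52 for RGS5, and 2.77 for PDGFRA, but 0.55 for CNN1 and 0.13 for MGP. To show what the array read where probes of 1 gene stood apart, 30-base windows of the DES, RGS5, and PDGFRA probes and of 2 ACTA2 probes are given, 5′ to 3′, with the signal in capitals where the window has it.
DES probe 1: ctgaacagaaacAATAAAaagataagcaca
DES probe 2: gagccaagacatggcagtgaccctaccctt
RGS5 probe 1: ctagtAATAAAgagaccaactgtgtatgag
RGS5 probe 2: tctgaatttggttagtaaaatgtggtaggc
PDGFRA probe 1: agacgtgcataaAATAAAagattaaagtct
PDGFRA probe 2: cttaaaaggtactggtactatagcattttg
ACTA2 probe 4: tatgtgttttttAATAAAtctgagatatgg
ACTA2 probe 5: gacctctatgctaacaacgtcctctccggg
A match is only a description of these letters, and what the difference between probes comes from was not tested.

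On the UMD 3.1 assembly that the files use, the ACTA2 transcripts lie on chromosome 26 within 10662362-10714982, TAGLN on chromosome 15 at 28318411-28323666, and MYH11 on chromosome 25 at 14218281-14343745. CNN1 lies on chromosome 7 at 17106394-17114222, DES on chromosome 2 at 108075460-108082534, and RGS5 on chromosome 3 at 6228349-6426528. PDGFRB lies on chromosome 7 at 63496230-63532702, PDGFRA on chromosome 6 at 71373513-71421283, and MGP on chromosome 5 at 95456444-95459983. The files give the span of each transcript but not the exon or untranslated region that a probe reads.

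All 9 genes were higher in TH than in each of the other groups. Against GC, the background of genes called higher in TH was 11.1%, against CC 13.3%, against CC after IVM 18.5%, and against the oocyte 32.1% of 22550 genes. The median difference of the 9 genes was 3.07 on the log2 scale against GC, 4.55 against CC, 4.50 against CC after IVM, and 7.12 against the oocyte. In these medians, RGS5 against CC, CC after IVM, and the oocyte and PDGFRA against the oocyte stood at the lower bounds given below, since they were not above background there. With the fitted differences instead, the median against the oocyte was 8.61 and the other medians were the same. The median over all genes was -0.22, -0.00, -0.40, and 0.42 in the same order. The 4 comparisons share the TH arrays. For each of the 9 genes, the lowest TH array lay above the highest of the other 16 arrays. The share of all genes for which this held was not counted, so this has no background beside it. Within the first slide, with 2 arrays a group, all 9 differences against GC were positive, between 1.46 and 6.39, and 6 passed the test. Within the second slide they were between 1.93 and 6.48, and 7 passed. With the slide as a block, 9 passed.

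**Figure D1:**
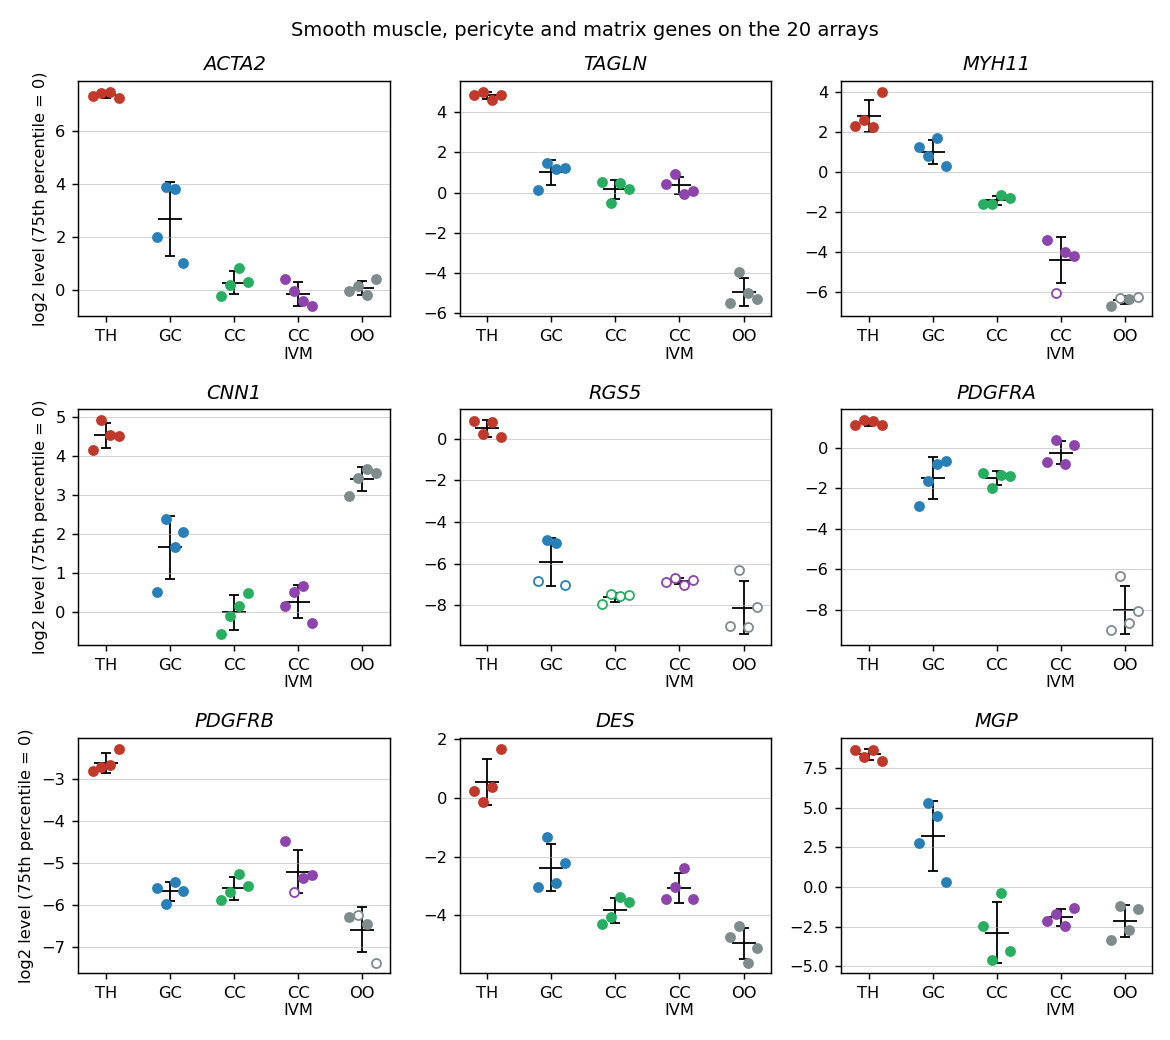
Log2 level of each of the 9 genes (vertical axis, relative to the 75th percentile of the array) on the 4 arrays of theca (TH), granulosa (GC), cumulus (CC), cumulus after IVM (CC IVM), and oocytes (OO). Points are arrays, open where no probe of the gene was well above background, and bars are the mean and SD. TH was highest in every panel, GC spread widely for ACTA2 and MGP, and CNN1 had its second highest mean, 3.40, in the oocyte.

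ACTA2, the smooth muscle actin, had the smallest spread of the 9 genes among the TH arrays. A level is given here as log2 of the processed signal minus the 75th percentile of the array, so 0 is the signal of a spot at that percentile, and levels of different genes are not compared. In TH replicates 1 to 4, ACTA2 was at 7.35, 7.45, 7.50, and 7.26. In GC it was at 2.01, 3.90, 3.81, and 1.01, which is a wider spread (SD 1.41, n = 4, against 0.11 in TH). CC lay between -0.22 and 0.83, CC after IVM between -0.59 and 0.42, and oocytes between -0.21 and 0.42. The groups did not overlap between TH and the rest, or between GC and CC. TH was higher than GC by 4.71 ± 0.46 (SE), which is 26.2-fold (limma, adjusted p = 2.8e-07). GC was higher than CC by 2.41 ± 0.46 (limma, adjusted p = 0.0023). CC, CC after IVM, and oocytes followed with gaps of at most 0.23 between neighbours in the order of means, and limma found no difference between these neighbours.

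TAGLN, which encodes transgelin, an actin-binding protein of smooth muscle, showed another order. In TH it was at 4.88, 5.03, 4.63, and 4.88. GC had 0.13, 1.50, 1.17, and 1.21, and CC had 0.52, -0.53, 0.47, and 0.17, so that GC and CC overlapped. TH was higher than GC by 3.85 ± 0.35 (limma, adjusted p = 1e-07), and GC differed from CC by 0.84 ± 0.35 (limma, adjusted p = 0.18). CC after IVM, between -0.06 and 0.94, overlapped with CC. The oocyte stood far below these cells, at -5.51, -3.94, -5.02, and -5.31. Of the 2 probes, each was above background on 3 of the 4 oocyte arrays. The oocyte was lower than CC by 5.10 ± 0.35 (limma, adjusted p = 1.1e-10) and lower than TH by 9.80 ± 0.35, an 891-fold difference (limma, adjusted p = 9e-15).

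MYH11, the smooth muscle myosin heavy chain, fell step by step from TH to GC, CC, and CC after IVM. Its oocyte mean was lower still, but that last step rests in part on signal at background. In TH MYH11 was at 2.31, 2.61, 2.25, and 4.00, with replicate 4 above the other arrays. In GC it was at 1.23, 0.78, 1.67, and 0.28. These groups were the closest of any of the 9 genes, with the lowest TH array 0.58 above the highest GC array. TH was higher than GC by 1.80 ± 0.46, 3.49-fold (limma, adjusted p = 0.0063), and this difference was 1.23 to 2.15 over the alternative settings. CC was at -1.60, -1.62, -1.13, and -1.29, below every GC array, and GC exceeded CC by 2.40 ± 0.46 (limma, adjusted p = 0.0021). On the 4 GC arrays, MYH11 was at 17.6 to 46.0% of its TH mean, whereas ACTA2 was at 1.20 to 8.86% of its own.

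MYH11 was also the only 1 of the 9 genes called between CC after IVM and CC, a comparison in which 35.8% of all genes were called in either direction. CC after IVM had -3.40, -6.02, -3.98, and -4.18, and replicate 2 was not above background. It was lower than CC by 2.99 ± 0.46 (limma, adjusted p = 4.4e-05), and the groups did not overlap. The slide of these arrays cannot be told apart from IVM. In the oocyte MYH11 was between -6.67 and -6.24 and above background on 2 of 4 arrays. The fitted difference between TH and the oocyte, 9.17 ± 0.46 (limma, adjusted p = 1.1e-12), rests in part on signal at background and was between 7.12 and 9.48 over the alternative settings.

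CNN1, which encodes calponin 1, a regulator of smooth muscle contraction, was the exception to the low levels in the oocyte. In TH it was at 4.14, 4.91, 4.54, and 4.52. The oocyte followed, at 2.95, 3.44, 3.67, and 3.54. GC came next with 0.51, 2.38, 1.65, and 2.04, CC was between -0.58 and 0.48, and CC after IVM was between -0.29 and 0.65. TH did not overlap with the oocyte, nor the oocyte with GC, whereas GC replicate 1 lay below the highest array of CC after IVM. TH exceeded the oocyte by 1.12 ± 0.34, 2.18-fold (limma, adjusted p = 0.0067). The oocyte exceeded GC by 1.76 ± 0.34 (limma, adjusted p = 0.00014) and CC by 3.42 ± 0.34 (limma, adjusted p = 2.7e-08). Both CNN1 probes were above background on all 20 arrays, and in each the oocyte mean lay between TH and GC. The lead of TH over the oocyte was 0.52 in the deposited log2 table, where it did not pass the test (limma, adjusted p = 0.14), and 1.33 within the first slide, where it did not pass either (limma, adjusted p = 0.14).

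In the comparison of the oocyte with GC, where 69.9% of all genes were called in either direction, CNN1 was higher in the oocyte and the other 8 genes were lower. Against CC, where 63.1% of all genes were called, CNN1 was higher, and TAGLN, MYH11, PDGFRA, PDGFRB, and DES were lower in the oocyte. For PDGFRB and DES this call was lost within the first slide, at -0.47 and -0.37 (limma, adjusted p = 0.17 and 0.69). With shares this large over all genes, the counts say little about the 9 genes.

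DES encodes desmin, the intermediate filament of muscle cells. Its gene level, the middle of its 2 probes, was 0.24, -0.14, 0.37, and 1.69 in TH, -3.04, -1.32, -2.92, and -2.21 in GC, and between -4.30 and -3.39 in CC. TH was higher than GC by 2.92 ± 0.42 (limma, adjusted p = 2.8e-05). Probe 1 alone gave 2.34, and with normexp, a model-based background correction, the difference was 1.66, both past the test. In CC after IVM it was between -3.45 and -2.38, and in the oocyte between -5.63 and -4.36. GC exceeded CC by 1.46 ± 0.42 (limma, adjusted p = 0.036), and this call was lost without GC replicate 2 or 4 or without CC replicate 1, 2, or 4, at values between 1.11 and 1.55 (limma, adjusted p between 0.059 and 0.14). With the slide as a block it did not pass either, at 1.46 (limma, adjusted p = 0.055), nor with signals floored at the lowest signal above background, at 1.09 (limma, adjusted p = 0.065). The high value of TH replicate 4 came from probe 2, which read -0.33 there and between -3.55 and -2.76 on the other TH arrays. DES probe 1 read 3.52, 3.27, 3.50, and 3.70 in TH and was above background on all 20 arrays, whereas probe 2 was above background on 4 TH arrays and 1 GC array.

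**Figure D2:**
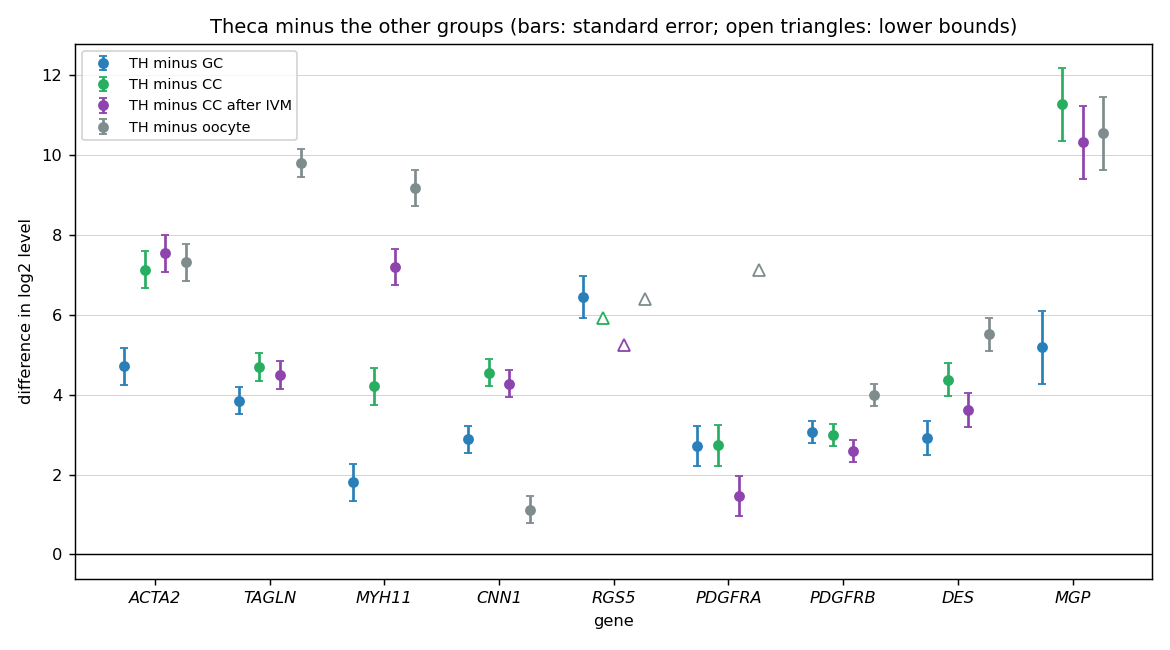
Difference in log2 level between theca (TH) and granulosa (GC), cumulus (CC), cumulus after IVM, or oocytes for each gene, with the standard error of the fit over 20 arrays. Open triangles are lower bounds in the main setting, without error, where no array of the other group had the gene above background. All 36 values lay above 0, from 1.12 (CNN1, oocyte) to 11.26 (MGP, CC).

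RGS5, a regulator of G protein signalling that is abundant in pericytes, was near or below background outside TH. It was at 0.87, 0.22, 0.80, and 0.10 in TH. In GC it was at -6.82, -4.89, -5.01, and -7.05, and only replicates 2 and 3 had a probe above background. The fitted difference between TH and GC was 6.44 ± 0.52 (limma, adjusted p = 2.9e-08). Its size depends on signals at background, and it was 5.17 with signals floored at the lowest signal above background, 4.13 in the deposited log2 table, and 3.38 with normexp, and passed the test in each. No array of CC, CC after IVM, or oocytes had RGS5 well above background, so only bounds are given against the lowest signal that was above background on each array. The adjusted p beside a bound is that of the fitted difference and does not test the bound. On the log2 scale TH exceeded CC by at least 5.91 (limma, adjusted p = 6.4e-10). On the linear scale it was at least 37.8-fold higher than CC after IVM (limma, adjusted p = 1.6e-09), and at least 84.3-fold higher than the oocyte (limma, adjusted p = 2e-11). These bounds hold for the main setting only. Over the alternative settings the fitted log2 differences went down to 3.92 against CC, 3.30 against CC after IVM, and 5.46 against the oocyte.

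PDGFRB, the receptor of PDGF-B through which pericytes are recruited to vessels, differed less than RGS5 between TH and GC. TH had -2.80, -2.71, -2.66, and -2.26. GC, between -5.98 and -5.46, and CC, between -5.89 and -5.25, overlapped, and their means differed by -0.07 ± 0.27 (limma, adjusted p = 0.91). Between TH and GC the difference was 3.07 ± 0.27 (limma, adjusted p = 8.3e-08). It was 2.54 with probe 1 alone, 2.04 with the floor, and 0.88 with normexp, and passed the test in each. PDGFRB was above background on 3 of 4 arrays of CC after IVM and on 2 of 4 oocyte arrays. The fitted difference of the oocyte from CC was -0.99 ± 0.27 (limma, adjusted p = 0.0035), much of it between signals at background. Probe 2 was above background on the 4 TH arrays and on no other array, while probe 1 was above background on all GC and CC arrays.

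PDGFRA, the receptor of PDGF-A, showed a small lead of TH over CC after IVM. In TH it was at 1.09, 1.35, 1.30, and 1.13, and in GC at -2.89, -1.66, -0.79, and -0.65. CC lay between -2.01 and -1.25, within the range of GC, and the 2 means differed by 0.01 ± 0.50 (limma, adjusted p = 0.99). TH was higher than GC by 2.72 ± 0.50 (limma, adjusted p = 0.00043) and higher than CC by 2.73 ± 0.50 (limma, adjusted p = 0.00029). CC after IVM had -0.70, 0.35, -0.80, and 0.15. The lead of TH over these was 1.47 ± 0.50, 2.76-fold (limma, adjusted p = 0.025). That call was lost with the brightest probe and without TH replicate 2 or replicate 1 or 3 of CC after IVM, at values between 1.16 and 1.42. In probe 1, the lowest TH array lay 0.20 below the highest array of CC after IVM. The step from CC to CC after IVM, 1.26 ± 0.50, did not pass the test (limma, adjusted p = 0.058), although the groups did not overlap.

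In the oocyte, PDGFRA was not above background on any array, with both probes. TH was at least 139-fold higher than the oocyte (limma, adjusted p = 4.3e-12 for the fitted difference, not the bound). This bound holds for the main setting only, and over the alternative settings the fitted log2 difference went down to 6.07. PDGFRB was above background on 2 oocyte arrays, with probe 1 only. Detection of the 2 PDGF receptors was not compared by a test.

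**Figure D3:**
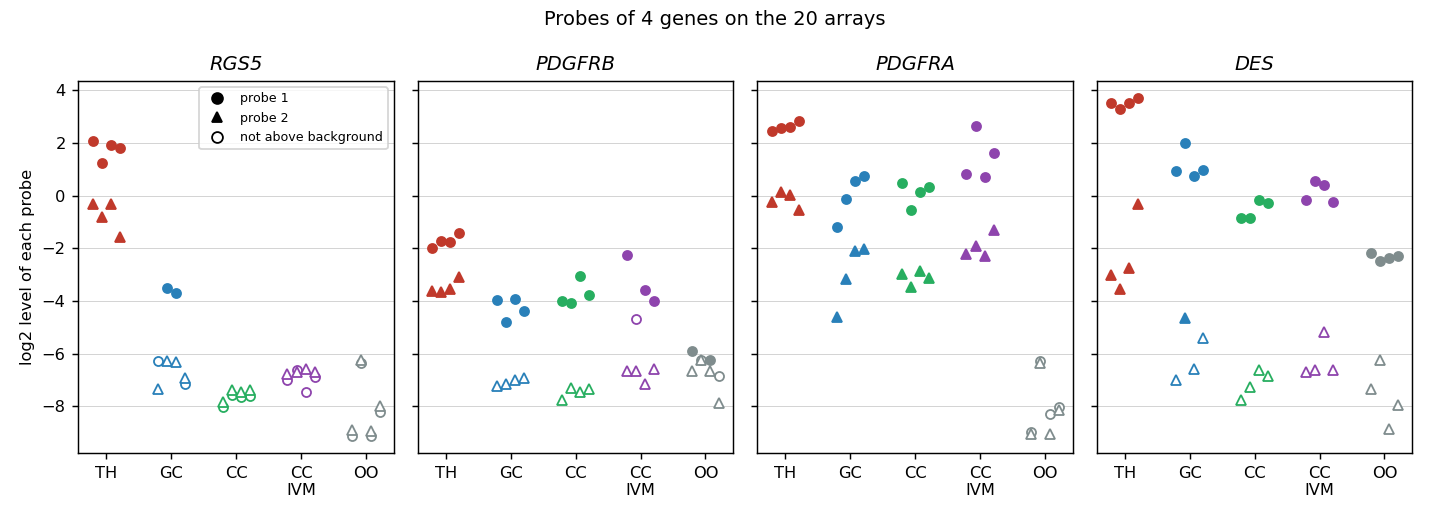
Log2 level of the 2 probes (circles and triangles) of RGS5, PDGFRB, PDGFRA, and DES on each array, grouped by cell type, with open symbols where the probe was not well above background. The probes of a gene stood apart in level, and PDGFRB probe 2 and DES probe 2 were near background outside TH.

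MGP, matrix Gla protein, differed widely between TH and CC, CC after IVM, and the oocyte. TH had 8.66, 8.22, 8.68, and 7.96, whereas CC had -2.50, -4.64, -0.37, and -4.02. The difference of 11.26 ± 0.91, 2452-fold (limma, adjusted p = 1e-08), was 10.67 without CC replicate 2 and 12.10 without CC replicate 3. GC had 2.77, 5.29, 4.47, and 0.28, and TH exceeded it by 5.18 ± 0.91, 36.2-fold (limma, adjusted p = 0.00023). Single arrays moved this value, to 4.21 without GC replicate 4 and to 5.87 without GC replicate 2. GC in turn exceeded CC by 6.08 ± 0.91 (limma, adjusted p = 0.00024), and by 5.39 to 7.05 without GC replicate 2 or 4 or CC replicate 2 or 3. The lowest GC array was only 0.65 above the highest CC array. Within single slides, with 2 arrays a group, the difference between TH and GC was 4.41 and 5.94 and did not pass the test (limma, adjusted p = 0.066 and 0.057). CC after IVM was between -2.50 and -1.32 and the oocyte between -3.33 and -1.21, and both overlapped with CC. TH exceeded the oocyte by 10.54 ± 0.91 (limma, adjusted p = 3.3e-09). The study placed MGP in its cluster of genes overexpressed in the oocyte, and why this differs was not tested.

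Between GC and CC, 5 of the 9 genes differed, all higher in GC (ACTA2, MYH11, CNN1, DES, and MGP), in a comparison in which 8.06% of all genes were called in either direction. TAGLN and RGS5 had 0.84 and 1.67 and did not pass the test. PDGFRA and PDGFRB were nearly level. Within single slides, 1 of the 9 genes passed on each.

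The 4 GC arrays were not alike for these genes. GC replicates 2 and 3 had the highest ACTA2, MGP, and RGS5 of the 4 arrays, which was so for these 3 of the 9 genes. Expressed as a percent of the TH mean of the same gene, GC replicates 1 to 4 had 2.40, 8.86, 8.36, and 1.20% for ACTA2 and 2.04, 11.7, 6.65, and 0.365% for MGP. RGS5 was at 2.40 and 2.20% on replicates 2 and 3 and not above background on the others. INSL3 and COL1A1 were highest on the same 2 arrays. INSL3, a hormone of theca cells, was at 6.12, 21.9, 18.2, and 6.95% of its TH mean, and COL1A1, a collagen of fibroblasts, at 3.48, 14.9, 11.7, and 2.10%. PECAM1, of endothelium, was at 1.72 and 5.39% on replicates 1 and 2 and not above background on the others. CYP17A1 was at 3.41% on replicate 2 and not above background on the others. Summed on a linear scale, the theca endocrine and fibroblast markers were highest on replicate 2, at 77.5 and 32.3. The sums of the endothelial and of the leukocyte and blood markers were highest on replicate 4, at 1.15 and 1.22. In CC, INSL3 had a mean level of 4.54, against 5.29 in GC. The other 6 of the 9 genes did not follow the order of ACTA2, MGP, and RGS5. TAGLN had between 3.78 and 9.77%, CNN1 had 6.19, 22.6, 13.6, and 17.8%, and DES had 8.35, 27.5, 9.09, and 14.8%, each highest on replicates 2 and 4. MYH11, with 33.7, 24.8, 46.0, and 17.6%, and PDGFRB, with 12.5, 9.64, 13.8, and 12.1%, were highest on replicates 3 and 1, and PDGFRA, with 5.79, 13.6, 24.8, and 27.3%, on replicates 4 and 3. The part of theca RNA in the values of GC was not tested.

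Of the markers of other cells of the wall, 6 of 7 for fibroblasts, 5 of 6 for endothelium, and 3 of 5 for leukocytes and blood were higher in TH than in GC. Over all genes the share called higher was 11.1%. CDH5 of endothelium and HBB and CD68 of blood and leukocytes had 0.92, 0.20, and 1.07 and did not pass (limma, adjusted p = 0.14, 0.81, and 0.10). Of 7 fibroblast markers, 7 were above background on every TH array and 6 or 7 on the GC arrays, and their summed level, on a linear scale on which 1 is the 75th percentile of the array, was between 228 and 257 in TH and between 8.86 and 32.3 in GC. Of 6 endothelial markers, 5 or 6 were above background on TH arrays and 4 or 5 on GC arrays, with summed levels between 4.64 and 9.17 in TH and between 0.43 and 1.15 in GC. Of 5 markers of leukocytes and blood, 5 were above background on TH arrays, with summed levels between 4.50 and 8.04, against 0.447 to 1.22 in GC. Among the fibroblast markers, OGN had 6.07 (limma, adjusted p = 2.8e-05) COL1A1 had 4.07 (limma, adjusted p = 9e-06), and POSTN had -1.02 (limma, adjusted p = 0.17). Which of these cells hold the RNA of the 9 genes was not tested.

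Other genes of smooth muscle followed in part. Of 14 genes of smooth muscle contraction and its control, 12 were on the array, and 10 were higher and 1 lower in TH than in GC, with a median difference of 1.62. PLN, phospholamban, which regulates the calcium pump of muscle, was higher by 4.55 (limma, adjusted p = 7e-07), and LMOD1, leiomodin of smooth muscle, by 3.80 (limma, adjusted p = 4e-07). TPM1, a tropomyosin, went the other way, with -2.17 between TH and GC (limma, adjusted p = 1.1e-07) and -3.82 between TH and CC (limma, adjusted p = 4.4e-11). Against CC 9 of the 12 were higher and 2 lower, against CC after IVM 9 and 1, and against the oocyte 12 and 0. Over all 22550 genes, 2510 were higher and 2825 lower in TH than in GC, and 3010 and 3528 against CC. Against CC after IVM these were 4163 and 5694, and against the oocyte 7248 and 7187. TPM2 had -1.24 between TH and CC, but 0.50 with its brightest probe. Within the first slide 3 of the 12, and within the second 6, were called higher in TH than in GC.

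Of 12 further pericyte genes, 6 were higher in TH than in GC and 0 lower, with a median of 1.27. By limma at an unadjusted p under 0.05 and by the methods' test the count of lower genes was also 0. With 2825 of all 22550 genes called lower in TH than in GC, a count of 0 in 12 says little. COX4I2, a subunit of cytochrome c oxidase found in pericytes, was above background on 4 TH arrays and on no other array. For this gene TH exceeded GC by at least 3.81 on the log2 scale (limma, adjusted p = 2.3e-08 for the fitted difference, not the bound). HEYL, a target of Notch signalling in mural cells, was higher by 4.79 (limma, adjusted p = 4.6e-07). The lowest of the list was MCAM, with -0.57 (limma, adjusted p = 0.21). Against CC, 6 were higher and 2 lower, and MCAM was lower in TH, with -2.29 (limma, adjusted p = 6.3e-06). The other lower gene, NDUFA4L2, had -4.79 (limma, adjusted p = 2.4e-08). The count of higher genes against CC was 3 with the deposited log2 table, with normexp, and by the methods' test. Against CC after IVM 6 were higher and 2 lower, and against the oocyte 11 and 1. ANGPT1 and ENPEP were higher in TH than in CC after IVM in the main setting and turned to -0.17 and -0.22 with normexp.

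Of the 4 PDGF ligands, 1 was higher in TH than in GC, where 11.1% of all genes were. PDGFD, a ligand of PDGFRB, was not above background on any GC array. For this ligand TH was at least 1.84-fold higher (limma, adjusted p = 9.3e-09 for the fitted difference, not the bound). With normexp, none of the 4 ligands passed this test. PDGFB and PDGFC had 1.39 and 0.27 and did not pass (limma, adjusted p = 0.17 and 0.73). PDGFA, named here after its values were seen, was higher in the oocyte, with -3.44 between TH and the oocyte (limma, adjusted p = 2.5e-07), whereas its receptor PDGFRA was not above background on the oocyte arrays.

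**Figure D4:**
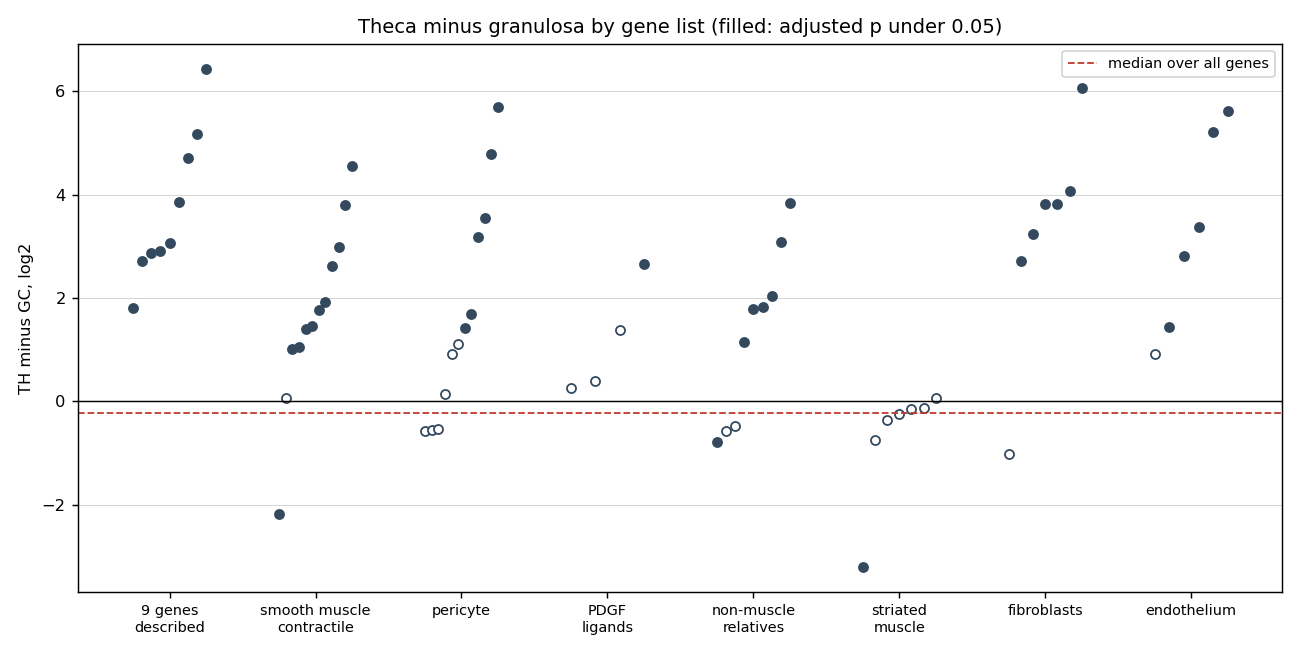
Difference in log2 level between theca (TH) and granulosa (GC) for each gene of the lists named below the axis, sorted within a list, filled where the adjusted p of limma was under 0.05. The dashed line is the median over all genes, -0.22. All 9 genes described lay above it, while the contractile and pericyte lists also held genes at or below 0.

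Relatives of the 9 genes in other muscle and in cells without muscle did not share 1 pattern. Of 9 non-muscle relatives, 6 were higher and 1 was lower in TH than in GC. CNN2, a calponin outside muscle, was higher by 3.85 (limma, adjusted p = 1.8e-07), TAGLN3, a transgelin of neurons, by 3.09 (limma, adjusted p = 4.7e-07) with 1 of 4 GC arrays above background, and ACTG1, a cytoplasmic actin, was lower, with -0.79 (limma, adjusted p = 0.0007). ACTB was higher in TH than in CC by 2.11, but had -0.04 with its brightest probe. In the oocyte, CNN2 was at -1.77, as in TH at -1.70, and above GC by 3.78, so CNN1 and CNN2 were both higher in the oocyte than in GC. The third calponin gene, CNN3, had 0.34 between the oocyte and GC and did not pass (limma, adjusted p = 0.21). Of 7 markers of striated muscle, 0 were higher, also at an unadjusted p under 0.05 in limma and by the methods' test, and 1 was lower in TH than in GC. Over all 22550 genes, 2510 were higher and 2825 lower, so these counts in 7 markers say little.

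ACTA1, the actin of skeletal muscle, ran opposite to ACTA2 between TH and GC, CC, or CC after IVM, but not between TH and the oocyte. It was at 6.18, 5.55, 6.18, and 5.80 in CC, at 4.93, 4.47, 4.29, and 5.07 in CC after IVM, and at 2.28, -0.01, -0.78, and 1.04 in GC. In TH it was at -2.92, -2.57, -2.76, and -2.03. The oocyte had -2.03, -2.86, -1.20, and -2.73, and ACTA1 had -0.36 between TH and the oocyte (limma, adjusted p = 0.5). It was lower in TH than in CC and GC, with -8.49 between TH and CC (limma, adjusted p = 1.5e-10) and -3.20 between TH and GC (limma, adjusted p = 5.1e-05), with no overlap. The GC arrays with the most ACTA2, replicates 2 and 3, had the least ACTA1. MYH7, a myosin of striated muscle, had 0.07 between TH and GC (limma, adjusted p = 0.91), and MYH1, another, was not above background on any TH or GC array.

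**Figure D5:**
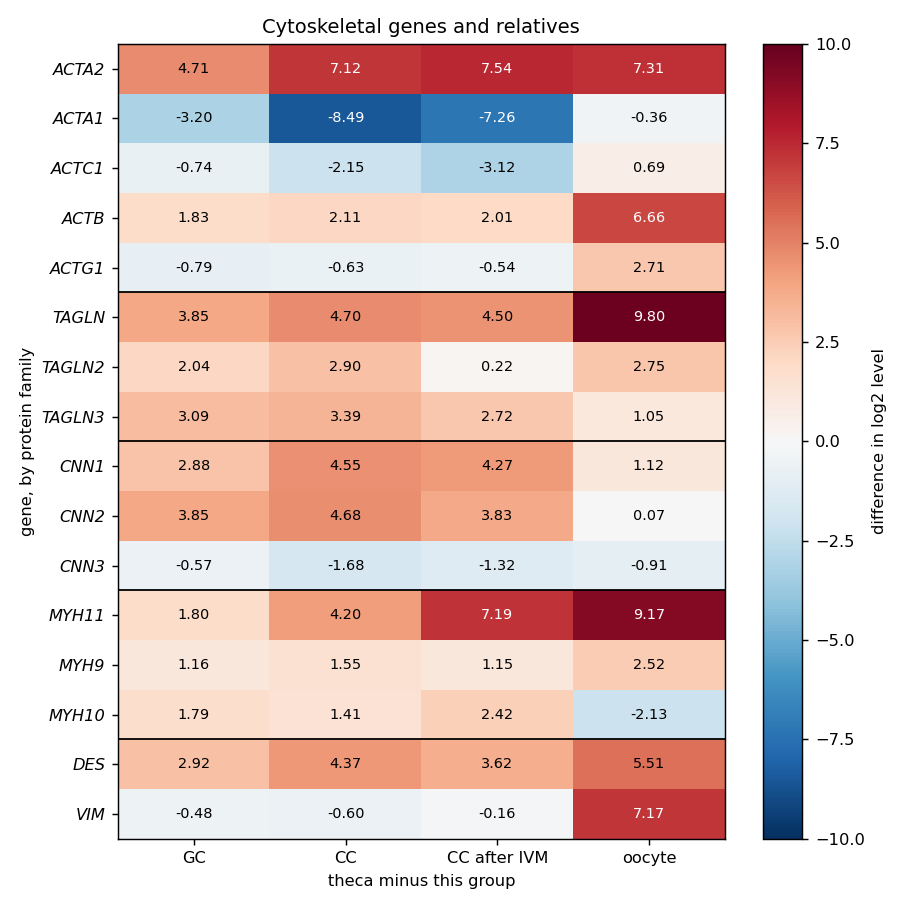
Theca minus each other group (columns, difference in log2 level) for actins, transgelins, calponins, myosin heavy chains, and intermediate filament genes (rows), red where theca was higher and blue where it was lower. ACTA2 and ACTA1 had opposite signs against GC, CC, and CC after IVM, and the calponins CNN1 and CNN2 had their smallest differences against the oocyte.

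The genes most like the 9 in their pattern were sought over the 20 arrays. Each of the 9 profiles was centred and scaled, and their mean was compared with every named gene that was above background on all 4 TH arrays. The highest Pearson r was that of SCARA5 (0.985), PLTP (0.985), ISLR (0.983), ASPN (0.983), and ASB2 (0.983). The filter admits genes through TH alone, and SCARA5 was not above background on any array of CC, CC after IVM, or oocytes. The 20 points fall into 5 groups and share the scaling of each array, so r describes mainly the order of the groups. Of the 9 genes themselves, RGS5 had the highest r with their mean (0.971) and CNN1 the lowest (0.535).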

How the data were processed

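Per the labels and the study's methods, RNA of 20 samples was hybridized to a custom bovine 60K Agilent array in 1 colour. The authors deposited the scanner output (Agilent Feature Extraction 10.7.3.1 per the submitters' processing notes), in which intensity is given per spot before any normalization between arrays, and a table of log2 values, which equals log2 of the median signal minus the array's median within 5.0e-09. The annotation in the files is on UMD 3.1, and all 20 value columns of the table were matched to samples (0 were left unmatched).

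Control spots and outlier spots were left out. The 75th percentile over all probes was subtracted from log2 of the processed intensity on each array, and the median over the spots of a gene was taken. Of 61325 probes, 9779 had no gene name, of which 734 were named by accession through the RefSeq table. limma 3.58.1 in R 4.3.3 was fitted to the 20 arrays, with Benjamini-Hochberg adjustment over 22550 genes and a threshold of 0.05, two-sided. The fit was tested on simulated data. Same-numbered TH and GC arrays deviated together in all 4 pairs (r between 0.20 and 0.44). GC and CC also had a positive r in all 4, between 0.02 and 0.19. Same-numbered arrays of TH, GC, and CC shared a slide, the labels state no pairing, and pairing apart from slide was not tested. Further steps ran in Python 3.11.15, where numpy 2.4.6 and pandas 2.3.3 built the tables and matplotlib 3.10.9 drew the plots. The number of arrays limits the precision.

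The methods' test follows the study's analysis of variance over the 16 arrays of cell types, with Tukey's test for pairs. It was run on the values scaled here, with the analysis of variance adjusted over all genes. The study tested only genes of the vesicle proteins, on its own normalized values. The alternatives were other scalings (quantile, array median, percentile over probes above background on all arrays), normexp (offset 50), the deposited table, other probe summaries, a filter (above background on at least 4 arrays), a floor, the 16 arrays, replicate or slide as a block, single slides, array weights, trend and robust eBayes, and leaving out each array. A group with no probe of a gene above background was given a bound, which holds for the main setting only. The adjusted p beside a bound is that of the fitted difference without the floor. Named were the 9 genes, the 2 highest and the 1 lowest difference of TH from GC in each related list and in the fibroblast and striated muscle markers, and the 5 genes most alike. The 9 genes and all lists were chosen with earlier results of these data known. Other names were added after their values were seen.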

Additional observations from a re-analysis of the deposited data

Results flagged for a closer look

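Of the 45 combinations of the 9 genes and 5 groups of 4 arrays, 1 had an array that stood apart from the other 3 by Dixon's criterion. In CC, RGS5 was at -7.93 on replicate 1, against -7.55 to -7.48 on the other 3 arrays, and none of the 4 was above background. Chance alone marks about 1 in 20 groups.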

How the results depend on the processing

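Of 864 recomputed differences between TH and another group, 852 kept their direction and passed the test, 12 kept only their direction, and 0 reversed. The number of the 9 genes higher in TH stayed between 6 and 9 against GC and between 8 and 9 against CC, CC after IVM, and the oocyte. Between GC and CC, where 5 genes differed, 1 passed within the first slide and 1 within the second, where only 2 arrays a group remain, and leaving out single arrays gave 4 to 6, as did the other settings. Between CC after IVM and CC, where MYH11 alone was called, the count was 2 with quantile normalization, the filter on dim genes, array weights, or trend and robust eBayes, and 2 with slide as a random block. It was 3 with the deposited table and 5 with normexp, and without single arrays of these 2 groups it was 1 to 2 (2 without replicate 3 of CC after IVM). The added gene in each count of 2 was PDGFRA, with differences between 1.24 and 1.45.

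Over all groups, r of same-numbered arrays was between -0.26 and 0.44 (median 0.03, 40 pairs), and 10 of the 20 arrays correlated best with their own number. Whether the replicate numbers pair the arrays was not tested. Same-numbered TH and GC arrays had a positive r in every pair, as did GC and CC. With the replicate block, the counts of the 9 genes were 9, 9, 9, and 9 higher in TH, 6 between GC and CC, and 2 between CC after IVM and CC. Over all genes, 2481 were then higher in TH than in GC, against 2510.

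Over all genes, the main count of genes higher in TH than in GC, 2510, was 1328 and 1626 within single slides, and against CC 3010 became 1837 within the first slide. Against the oocyte 7248 became 14496 with normexp, 11915 with the deposited table, 11222 with array weights, and 10878 without oocyte replicate 2. Between GC and CC 1817 became 187 and 449 within slides, 4033 with array weights, and 3115 by the methods' test, and between CC after IVM and CC 8078 became 15978 with normexp. The cause was not tested. The median over all genes of TH minus GC was between -0.28 and -0.07 over the other scalings, and of TH minus the oocyte between -0.04 and 0.73. With the percentile over probes above background on all arrays, 57.45% of the calls between TH and GC were higher in TH, against 47.05%. Values near background, as of RGS5 outside TH, limit what the signal can show.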
